A study of Mus musculus with 18 samples.

Results

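CTCF peaks in and around the olfactory and vomeronasal receptor gene clusters were described in mouse embryonic stem cells of 3 genotypes. A peak was taken when any of its summits lay inside or within 10 kb of a gene whose symbol starts with Olfr, Vmn1r or Vmn2r in the RefSeq annotation of GRCm38.p6, the assembly behind the mm10 build of the peak lists. This gave 419 of 71075 peaks (0.590%) in wild-type cells (WT), 345 of 62238 (0.554%) in cells without Tet1, Tet2 and Tet3 (TKO) and 344 of 59372 (0.579%) in cells without Tet1, Tet2, Tet3, Dnmt1, Dnmt3a and Dnmt3b (SKO). Of these, 270 WT, 215 TKO and 216 SKO peaks were named by an Olfr gene, 42, 35 and 31 by a Vmn1r gene, and 107, 95 and 97 by a Vmn2r gene.

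The study carried out chromatin immunoprecipitation and sequencing (ChIP-seq) for CTCF on 18 samples, 3 ChIP and 3 input for each genotype. All cells were grown in serum replacement medium with LIF on irradiated embryonic fibroblast feeders, and no group received a treatment. Per the labels the replicates of a genotype were pooled before the peaks were called, so each genotype has 1 peak list, no spread between replicates and no test. Each genotype is also a separate cell line, so effects of the missing enzymes and other differences between the lines cannot be told apart. The genome-wide background solved from the lists was 1.76 fragments over a position in WT, 1.82 in TKO and 1.37 in SKO, and a peak had to reach a q-value of 0.05 in its own list. The intervals given with shares are 95% Wilson intervals and cover counting error only. Where a count was 0, the share it allows is instead 3 counts over the total.

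Olfr genes encode the odorant receptors of the main olfactory epithelium, and Vmn1r and Vmn2r genes encode the type 1 and type 2 pheromone receptors of the vomeronasal organ. A mature olfactory neuron expresses 1 allele of 1 receptor gene, while the other receptor genes stay silent in heterochromatin. CTCF is a zinc finger protein that halts cohesin and so shapes chromatin loops. Methylation of CpG sites in its motif can hinder its binding. DNMT enzymes place the methyl group and TET enzymes start its removal by oxidation, so the 3 lists ask whether CTCF peaks at the receptor genes depend on either activity.

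Peaks rarely touched the start of a receptor gene, and 4 windows before gene starts show how the few that did differed between the lists. The sequences are from RefSeq (GRCm38.p6), 250 bases before the annotated gene start, 5′ to 3′ on the strand of the gene. Capitals in the first pair mark a match to a core of the CTCF motif (CC, any 3 bases, AG, any 2 bases, GGC), searched on both strands. Olfr479 (chr7:108054734-108054983, plus strand) had a WT peak alone, and Vmn2r29 (chr7:7278290-7278539, minus strand) had a peak in all 3 lists.
Olfr479: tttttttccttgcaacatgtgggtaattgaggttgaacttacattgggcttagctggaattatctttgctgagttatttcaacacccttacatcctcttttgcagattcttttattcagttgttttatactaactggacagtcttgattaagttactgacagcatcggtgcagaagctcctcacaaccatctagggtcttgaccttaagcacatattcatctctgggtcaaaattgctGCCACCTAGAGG
Vmn2r29: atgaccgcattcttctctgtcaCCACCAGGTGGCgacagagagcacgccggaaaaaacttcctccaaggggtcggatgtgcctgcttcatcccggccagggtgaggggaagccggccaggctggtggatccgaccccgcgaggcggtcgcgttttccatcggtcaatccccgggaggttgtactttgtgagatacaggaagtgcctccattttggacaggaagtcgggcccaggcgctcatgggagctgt

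The other pair are neighbours in the class I olfactory receptor cluster, Olfr628 (chr7:103731678-103731927, plus strand) with a WT peak alone and Olfr243 (chr7:103716346-103716595, plus strand) with an SKO peak alone. Capitals mark the bases at which either differs from the other in a global alignment.
Olfr628: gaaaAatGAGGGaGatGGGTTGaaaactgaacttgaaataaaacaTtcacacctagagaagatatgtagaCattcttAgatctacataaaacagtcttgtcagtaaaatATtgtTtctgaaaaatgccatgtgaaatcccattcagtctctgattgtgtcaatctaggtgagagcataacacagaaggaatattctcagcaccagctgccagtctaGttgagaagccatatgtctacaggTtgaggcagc
Olfr243: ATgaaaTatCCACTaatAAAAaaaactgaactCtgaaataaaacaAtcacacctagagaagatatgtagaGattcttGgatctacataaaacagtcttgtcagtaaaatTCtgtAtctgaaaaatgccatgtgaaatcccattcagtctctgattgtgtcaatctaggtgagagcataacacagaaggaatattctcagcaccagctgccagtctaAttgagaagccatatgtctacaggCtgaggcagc

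The Olfr479 window held 1 CpG in its 250 bases, and the Vmn2r29 stretch held 17. The WT peak at Olfr479 (chr7:108054779-108055106) had a fold enrichment of 9.35, the authors' ratio of ChIP signal to local background at the summit, from a pileup of 29 fragments. Its summit lay 5 bases before the gene start and inside the motif match CCTCTAGGTGGC, which reads on the strand opposite to the gene. The TKO and SKO lists held no peak there. At Vmn2r29 the fold was 21.5 in WT (pileup 83), 12.4 in TKO (34) and 11.6 in SKO (30), so the peak was kept in each list at a lower value in both knockouts. The WT summit lay 149 bases before the gene start and 68 bases from the match CCACCAGGTGGC.

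The Olfr628 and Olfr243 stretches held no match and no CpG, and 229 bases matched in the alignment, with 18 mismatches and 6 gap positions (90.5% identity). The WT peak at Olfr628 had a fold of 7.98 and a pileup of 21, with its summit 3 bases before the gene start. The SKO peak at Olfr243, whose annotated start lies 15.3 kb away, had a fold of 6.01 and a pileup of 15, with its summit 24 bases after the start. How reads that match several copies were counted is not given in the sources used here, so it is uncertain which of such alike copies a read came from.

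Windows of 300 bases, 250 before and 50 after the start, were at hand for 1267 receptor genes. Over these 1272 windows (some genes have more than 1), 7 (0.550%) were touched by a WT peak, 4 (0.314%) by a TKO peak and 6 (0.472%) by an SKO peak. Over all 32851 windows the shares were 9.43%, 9.20% and 9.10%. None of the 206 Vmn1r windows was touched in any list, which allows up to 1.46%. The motif core was in 0.865% of receptor windows and 8.61% of all windows, and its share was 0.738% for Olfr, 0.971% for Vmn1r and 1.69% for Vmn2r. Receptor windows were also poor in CpG, with a median of 1 per 300 bases against 8 in the windows of other genes. The other windows touched were those of Olfr38, Olfr543 and Olfr545 in all 3 lists and of Olfr95 in WT and SKO, and none of these held a motif match. The part of the motif share and of the CpG content in the low number of peaks was not tested.

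Receptor genes had fewer CTCF peaks near them than other genes. Of 2065 receptor entries, 384 (18.6%, 17.0% to 20.3%) had a WT peak inside or within 10 kb, 309 (15.0%) a TKO peak and 311 (15.1%) an SKO peak. Most receptor genes are short, with a median length of 945 bp, so other protein-coding genes up to 2000 bp (median 1113 bp) were taken beside them. Of these 1403 genes, 48.4% (45.8% to 51.0%) had a WT peak, 46.2% a TKO peak and 46.7% an SKO peak.

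The families differed in how often a gene had a peak. For Olfr genes the share was 19.6% in WT (17.6% to 21.8%), 15.5% in TKO and 15.6% in SKO. The Vmn1r family was lower, at 12.0% in WT (9.05% to 15.7%), 10.4% in TKO and 8.99% in SKO. Vmn2r genes, which hold introns and are far longer (median 15643 bp), stood at 22.1% (17.6% to 27.5%), 18.5% and 20.3%. Protein-coding Vmn1r genes had a WT peak in 9.17% of cases and Vmn1r pseudogenes in 16.7%, with overlapping intervals (6.08% to 13.6% and 11.4% to 23.8%). The coding and pseudogene shares of Olfr genes were closer, at 19.4% and 20.5%.

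Seen along the chromosome, the clusters were sparse in CTCF peaks beside the sequence around them. Receptor genes were chained into 1 cluster when neighbours lay at most 500 kb apart, which gave 119 clusters, 27 of them with at least 20 genes. These 27 held 1700 receptor genes over 45.6 Mb. Their WT density was 10.5 peaks per Mb, counting every peak between the first and the last receptor gene, against 37.1 in the 500 kb on each side and 26.7 over the whole genome. In TKO the density was 8.60 against 33.0 in the flanks and 23.4 over the genome, and in SKO it was 8.45 against 32.0 and 22.3. Over all 119 clusters the WT density was 13.4 peaks per Mb. How reads that match several copies were counted is not given, and the part of this in the low density was not tested. The same limit holds for the shares of genes and windows above and for the runs of genes below.

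Of the 27 clusters, 24 were below their own flanks in WT, and 25 were in TKO and in SKO. The WT exceptions were the cluster of 35 Vmn1r and 5 Vmn2r genes from Vmn1r-ps53 to Vmn1r-ps69 on chromosome 7 (20.7 peaks per Mb against 7 per Mb in the flanks), the cluster from Olfr1417 to Vmn2r-ps135 on chromosome 19 (17.1 against 16) and the cluster from Vmn2r-ps50 to Vmn1r71 on chromosome 7 (3.99 against 3). Between their first and last receptor genes these clusters had 33, 36 and 4 WT peaks, and 1, 14 and 1 WT peaks lay within 10 kb of one of their genes.

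**Figure D1:**
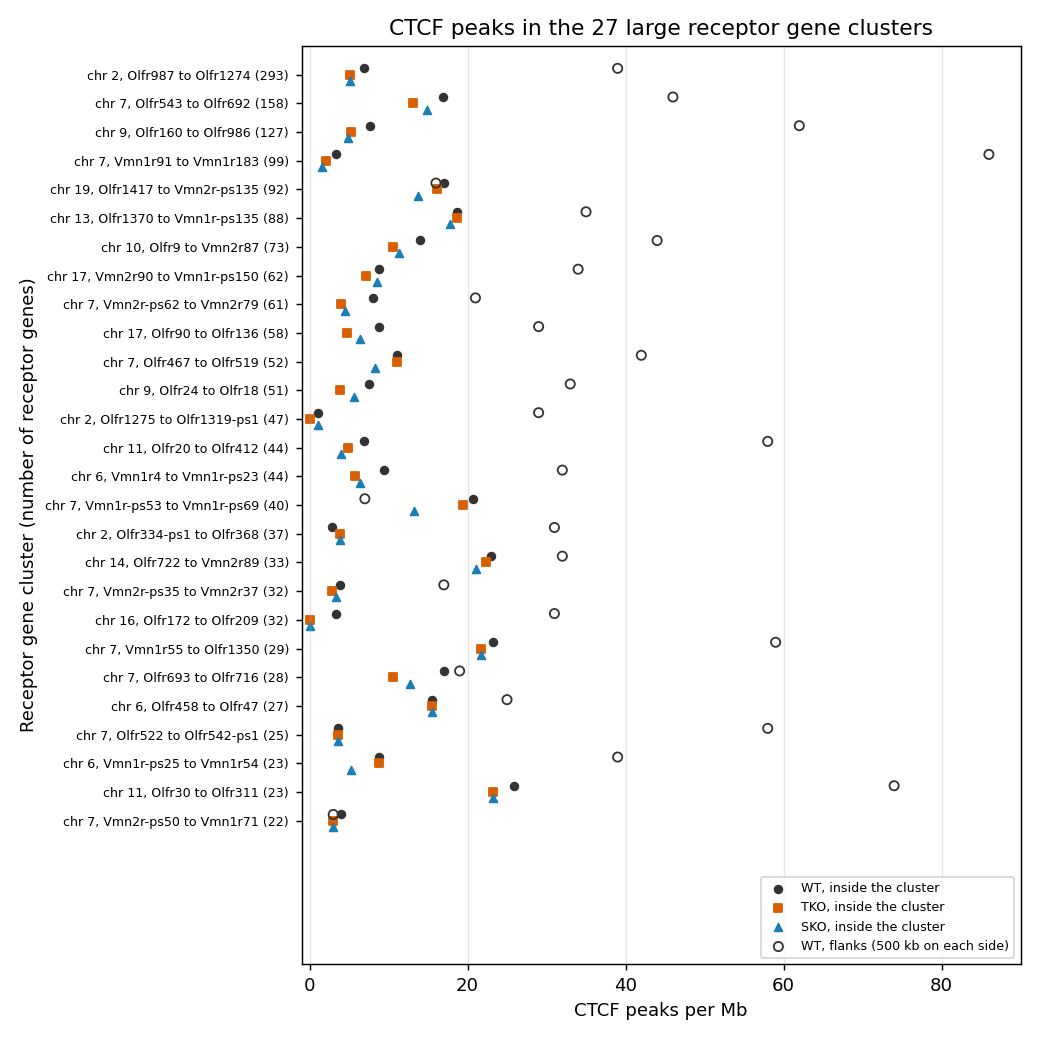
CTCF peaks per Mb (horizontal axis) in each receptor gene cluster with at least 20 genes (vertical axis, ordered by number of receptor genes). Filled symbols give the density inside the cluster in WT, TKO and SKO, and open circles the WT density in the 500 kb on each side; in WT 24 of 27 clusters lie left of their open circle.

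Large clusters ranged from sparse to dense. The chromosome 2 cluster from Olfr987 to Olfr1274 holds 293 Olfr genes over 5.07 Mb and had 35 WT peaks and 26 in either knockout. The cluster from Olfr160 to Olfr986 on chromosome 9, with 127 Olfr genes over 2.48 Mb, had 19, 13 and 12. On chromosome 7 the cluster from Vmn1r91 to Vmn1r183, with 99 Vmn1r genes over 3.95 Mb, had 13, 8 and 6 peaks. Within 10 kb of its genes lay 2 WT peaks and 0 peaks of either knockout. The chromosome 2 cluster from Olfr1275 to Olfr1319-ps1, with 47 Olfr genes over 0.937 Mb, had 1 peak in WT, 0 in TKO and 1 in SKO.

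At the other end, the cluster from Olfr30 to Olfr311 on chromosome 11 (23 Olfr genes over 0.387 Mb) had 25.8 peaks per Mb in WT and 23.2 in TKO and in SKO, still below the 74 per Mb of its WT flanks. The cluster from Vmn1r55 to Olfr1350 on chromosome 7, which mixes 9 Olfr, 19 Vmn1r and 1 Vmn2r genes, had 33, 31 and 31 peaks over 1.42 Mb. The mixed Olfr and Vmn1r cluster from Olfr1370 to Vmn1r-ps135 on chromosome 13 had 41, 41 and 39 peaks over 2.20 Mb. Relative to WT, 21 of the 27 clusters had fewer peaks in TKO, 5 had as many and 1 had more. In SKO 23 had fewer, 3 as many and 1 more, with the whole lists shorter as well.

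Further large clusters fell between these. Mixed clusters of Vmn2r genes on chromosome 17 (Vmn2r90 to Vmn1r-ps150, 62 genes over 3.62 Mb) and chromosome 7 (Vmn2r-ps62 to Vmn2r79, 61 genes over 2.23 Mb) had 32, 26 and 31 peaks and 18, 9 and 10 peaks. The cluster from Olfr9 to Vmn2r87 on chromosome 10 (73 genes over 1.51 Mb) had 21, 16 and 17. The Olfr cluster beside the major histocompatibility complex on chromosome 17 (Olfr90 to Olfr136, 58 genes over 1.25 Mb) had 11, 6 and 8. On chromosome 14 the cluster from Olfr722 to Vmn2r89 (33 genes over 1.57 Mb) had 36, 35 and 33.

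Among the remaining clusters of at least 20 genes, 3 kept the number of WT peaks in both knockouts or had more. The cluster from Olfr458 to Olfr47 on chromosome 6 (27 Olfr genes) had 12 peaks in each list, the one from Olfr522 to Olfr542-ps1 on chromosome 7 (25) had 2 in each, and the one from Olfr334-ps1 to Olfr368 on chromosome 2 (37) had 3 in WT and 4 in either knockout. The others had fewer in at least 1 knockout. On chromosome 7 the clusters from Olfr467 to Olfr519 (52 genes), Olfr693 to Olfr716 (28) and Vmn2r-ps35 to Vmn2r37 (32) had 12, 12 and 9 peaks, 8, 5 and 6, and 8, 6 and 7. On chromosome 6 the Vmn1r clusters from Vmn1r4 to Vmn1r-ps23 (44 genes) and from Vmn1r-ps25 to Vmn1r54 (23) had 15, 9 and 10 peaks and 5, 5 and 3. The Olfr clusters from Olfr24 to Olfr18 on chromosome 9 (51), from Olfr20 to Olfr412 on chromosome 11 (44) and from Olfr172 to Olfr209 on chromosome 16 (32) had 12, 6 and 9, then 7, 5 and 4, then 2, 0 and 0.

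Long runs of receptor genes lay between 2 consecutive CTCF summits. In WT the longest run held 41 genes, 32 of them protein-coding, from Olfr586 to Olfr243 in the class I cluster on chromosome 7, with 0.612 Mb between the summits. In TKO the longest run held 48 genes from Olfr1129 to Olfr1173 on chromosome 2 (0.764 Mb). In SKO it held 53 genes from Olfr1070-ps1 to Olfr1122 on the same chromosome (0.930 Mb). Vmn1r genes formed such runs too: Vmn1r-ps92 to Vmn1r-ps110 on chromosome 13 was a run of 37 genes in each of the lists, and the run that opens at Vmn1r-ps74 on chromosome 7 held 32 genes in WT, 42 in TKO and 49 in SKO. Runs of at least 10 genes held 1015 receptor genes in WT, 1161 in TKO and 1103 in SKO. The knockout lists were shorter as a whole, with 62238 and 59372 peaks against 71075 in WT. The part of list length in the longer runs was not tested.

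The class I cluster, whose receptors are the group most like those of fish, surrounds the beta-globin genes and had a WT density of 16.9 peaks per Mb. The 27 clusters had a median of 8.79, with 6.90 in the largest cluster of chromosome 2, 17.1 in the one from Olfr1417 to Vmn2r-ps135 and 18.7 in the one from Olfr1370 to Vmn1r-ps135. From Olfr543 to Olfr692 it holds 158 Olfr genes over 2.89 Mb and had 49 WT, 38 TKO and 43 SKO peaks. Of these, 35, 28 and 32 lay within 10 kb of a receptor gene. At the beta-globin genes each list had 1 peak within 10 kb, with a fold of 9.67 in WT, 10.5 in TKO and 16.8 in SKO, and it lay over 10 kb from any receptor gene. Among the receptor genes on either side, a peak lay 8023 bp from Olfr66 (chr7:103873123-103873415), found in TKO (fold 7.10) and SKO (7.60) and not in WT. A TKO peak 1184 bp from Olfr67 (chr7:103792901-103793136, fold 5.68) had no partner in WT or SKO.

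**Figure D2:**
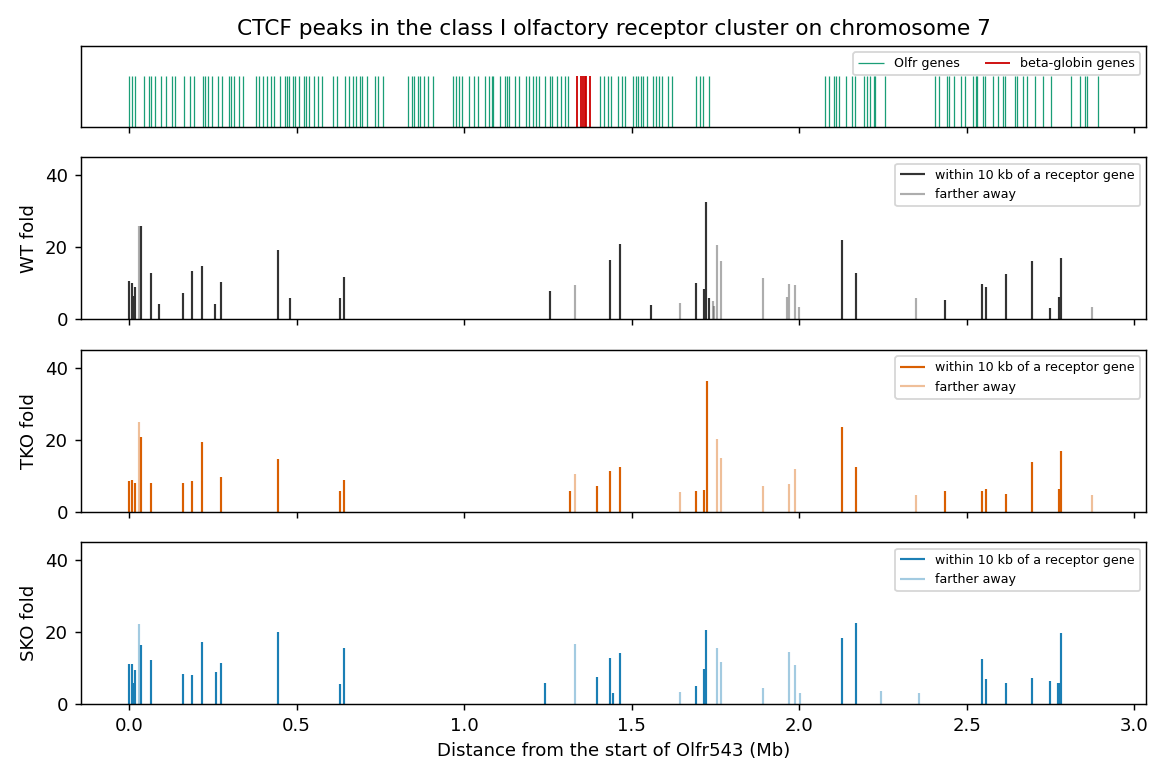
Fold enrichment of every CTCF peak (vertical axis, 1 panel per list) by its distance from the start of Olfr543 in Mb (horizontal axis) across the class I olfactory receptor cluster on chromosome 7, with receptor genes and the beta-globin genes above. Dark lines are peaks within 10 kb of a receptor gene and pale lines are farther away; the WT list has 49 peaks, TKO 38 and SKO 43, and a stretch of 41 genes has no WT peak.

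Where receptor genes did have peaks, most lay outside the gene. In WT 95 of 419 summits (22.7%) were inside a receptor gene, 84 were outside by up to 2000 bp and 240 by more. The TKO list had 78, 65 and 202 and the SKO list 77, 68 and 199. Inside the gene, WT had 35 peaks in 33 Olfr genes, 6 in 6 Vmn1r genes and 54 in 22 Vmn2r genes. A single peak was the rule: 79.4% of the 311 receptor genes that name a WT peak name 1.

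Peaks at receptor genes had a lower median fold than the list they came from. The median fold in WT was 8.71 (quartiles 5.81 and 13.9) against 10.0 over all WT peaks. In TKO it was 9.23 against 9.84, and in SKO 9.38 against 10.5. By family the WT median was 8.88 for Olfr, 8.54 for Vmn2r and 6.66 for Vmn1r peaks. Of the WT peaks at receptor genes 244 (58.2%) lay in the weaker deciles of the WT list by −log10 q, the lower 5 of 10. Among Vmn1r peaks 76.2% did.

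The strongest peaks of each family were in all 3 lists. They were picked by their WT −log10 q and lay in deciles 8 to 10 of the WT list, where 10 is the strongest. Of all WT peaks in decile 8, 0.0281% had no TKO peak and 0.0985% no SKO peak, with lower shares in the deciles above. Presence in all 3 lists is therefore not particular to receptor genes. For Olfr genes the highest −log10 q in WT belonged to a peak 5820 bp from Olfr94 on chromosome 17, with a fold of 32.6 in WT, 39.8 in TKO and 36.2 in SKO. The next lay 6010 bp from Olfr650-ps1 on chromosome 7 (32.6, 36.3 and 20.7) and 6254 bp from Olfr412 on chromosome 11 (26.8, 18.4 and 19.6). At the Olfr650-ps1 peak the lists differed in both terms of the fold, with a pileup of 230, 184 and 171 fragments over a background of 6.08, 4.09 and 7.32.

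For Vmn1r genes the strongest was 6049 bp from Vmn1r-ps92 on chromosome 13, with folds of 32.0, 24.1 and 36.8. It was followed by the peaks near Vmn1r1 on chromosome 1 (20.7, 25.3 and 23.8) and near Vmn1r-ps3 on chromosome 4 (13.9, 20.6 and 27.3). All 3 of the strongest Vmn2r peaks were at pseudogenes: inside Vmn2r-ps16 on chromosome 4 (20.5, 17.7 and 19.3), inside Vmn2r-ps98 on chromosome 13 (23.7, 20.5 and 32.2) and near Vmn2r-ps95 on chromosome 13 (11.1, 14.1 and 13.5).

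Inside Olfr genes, whose coding sequence usually lies in a single exon, some peaks were strong as well. Of those named here, Olfr1393 spans 28.5 kb as annotated, Olfr1358 23.1 kb and Olfr687 48.7 kb, and Olfr1174 is a pseudogene. A summit inside such a gene need not lie in coding sequence. The WT peak inside Olfr1393 on chromosome 11 (chr11:49271271-49271725) had the highest fold of any WT peak at a receptor gene, 33.5, with 16.1 in TKO and 17.3 in SKO. Others in WT lay inside Olfr304 (30.0 in WT, 16.8 in TKO and 11.1 in SKO), Olfr1358 (27.8, 16.7 and 15.0), Olfr1174 (24.7 in WT, 6.30 in TKO and 16.8 in SKO), Olfr1368 (17.9, 16.7 in TKO and 23.3 in SKO) and Olfr687 (17.1, 17.0 and 19.9). Each of these 6 had a peak in all 3 lists. The 6 WT peaks lay in deciles 7 to 10 of the WT list. Of all WT peaks in decile 7, 0.183% had no TKO peak and 0.324% no SKO peak, with lower shares in the deciles above. From WT to TKO the fold differed most at Olfr1174, followed by Olfr1393, Olfr304 and Olfr1358, and it was close at Olfr1368 and Olfr687. Both terms of the fold differed. At Olfr1174 the pileup was 76 fragments in WT and 45 in TKO, over a background of 2.11 and 6.30. At Olfr1393 it was 130 and 86 over 2.91 and 4.41, while at Olfr1368 the background was lower in TKO (2.83) than in WT (3.70). The 6 were picked by their WT fold, so the lists are not set side by side evenly. In the knockouts Olfr15 (13.6 in TKO), Olfr658 (22.5 in SKO) and Olfr1175 (19.0 in SKO) also ranked among the first 6.

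The 6 receptor genes with most peaks over the 3 lists, picked for that number, were all Vmn2r pseudogenes. Vmn2r-ps16 (chr4:146445134-146605510, 160 kb as annotated) had 13 in WT, 10 in TKO and 11 in SKO. Its neighbours Vmn2r-ps17 and Vmn2r-ps15 had 8, 10 and 7 and 7, 6 and 7, and Vmn2r-ps23 on chromosome 5 had 7, 6 and 8. With Vmn2r-ps98 (4, 5 and 3) and Vmn2r-ps99 (4 in each list) on chromosome 13, these 6 genes named 43 of 107 Vmn2r peaks in WT, 41 of 95 in TKO and 40 of 97 in SKO. Most of the 6 are long as annotated: Vmn2r-ps23 spans 153 kb, Vmn2r-ps17 140 kb, Vmn2r-ps98 77.7 kb and Vmn2r-ps15 74.2 kb, against 13.9 kb for Vmn2r-ps99. The longer Vmn2r-ps11 (212 kb) had 2, 2 and 3 peaks.

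Local background was also high at many of their peaks. The shares by family that follow include coding genes. The background at the summit was over 3 times the genome-wide one for 33.6% of Vmn2r peaks in WT, against 18.3% of all WT peaks, 13.0% of Olfr peaks and 11.9% of Vmn1r peaks. It was over 10 times for 7 of 107 Vmn2r peaks (6.54%) and for 0.284% of all WT peaks. Of the WT peaks at those 6 pseudogenes 23 of 43 had a background over 3 times the genome-wide one, and of the other Vmn2r peaks 13 did. The median background was 3.16 times the genome-wide one at the 6 pseudogenes and 1.58 times at the other Vmn2r peaks. Over all WT peaks it was 1.77 times, so the median of the other Vmn2r peaks was not above that of the list. Outside the 6 pseudogenes the WT background still reached 13.9 times near Vmn2r-ps95 and 11.5 times near Vmn2r-ps18. Inside Vmn2r-ps16 the WT background ran from 1.34 to 14.8 times the genome-wide one. At its strongest peak the pileup was 551 fragments in WT over a background of 25.9, 543 over 29.7 in TKO and 418 over 20.7 in SKO. The part of this background in the number of peaks was not tested. How reads that match several copies were counted is not stated for these pseudogenes either, so their peak counts and backgrounds are uncertain in the same way as those of Olfr628 and Olfr243.

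**Figure D3:**
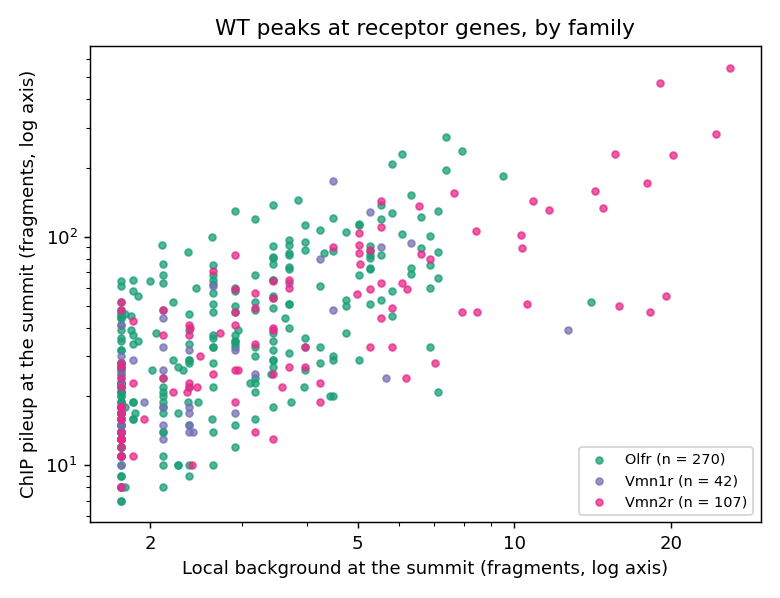
ChIP pileup against local background at the summit, both in fragments on log axes, for the 419 WT peaks at receptor genes, coloured by family. Each point is 1 peak; the points farthest to the right, up to a background of 25.9, are Vmn2r peaks.

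The first comparison between genotypes asked which WT peaks at receptor genes had no counterpart without the TET enzymes. Of 419 WT peaks, 101 (24.1%, 20.3% to 28.4%) had no TKO peak overlapping them by at least 1 bp, against 19.0% of all WT peaks. By family these were 69 of 270 Olfr peaks (25.6%), 11 of 42 Vmn1r peaks (26.2%) and 21 of 107 Vmn2r peaks (19.6%). At the rate of each strength decile of the WT list, 93.8 would be missing; the part of peak strength in the difference was not tested. In the weaker deciles 100 of 244 receptor-gene peaks were missing (41.0%, 35.0% to 47.2%; 37.6% of all WT peaks there). In the upper 5 deciles, called stronger below, it was 1 of 175 (0.571%; 0.357% of all).

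That 1 strong peak lay 1140 bp from Vmn2r11, a protein-coding vomeronasal receptor gene on chromosome 5 (chr5:109045608-109045888). Its fold was 12.2 in WT (pileup 37) and 10.6 in SKO (24), with no TKO peak. The next in fold lay inside Vmn1r220 on chromosome 13 (11.3 in WT and 5.91 in SKO), 764 bp from Olfr6 on chromosome 7 (10.5 and 5.25) and inside Vmn2r-ps16 (10.5 and 7.51). All 4 of these peaks that TKO lacked had a partner in SKO, where the pileups were lower than in WT.

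TKO peaks absent from WT numbered 27 of 345 (7.83%, 5.43% to 11.1%), beside 7.49% of all TKO peaks, and 27.1 at the rates of the deciles. None of the 148 in the stronger deciles of the TKO list was among them, which allows up to 2.03% (0.0321% of all). The highest folds were at Vmn1r-ps5 on chromosome 6 (8.24, and 6.67 in SKO), inside Vmn2r13 on chromosome 5 (7.10), at Olfr66 as given above, and near Olfr388-ps1 on chromosome 11 (6.82). The last of these and the Vmn2r13 peak had no SKO partner.

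The second comparison took both enzyme families away. In SKO 105 WT peaks (25.1%, 21.1% to 29.4%) had no partner, against 21.9% of all WT peaks, and 108 at the decile rates. The families ran from 17 of 107 Vmn2r peaks (15.9%, 10.2% to 24.0%) through 73 of 270 Olfr peaks (95% interval 22.1% to 32.6%) to 15 of 42 Vmn1r peaks (35.7%, 23.0% to 50.8%). These peaks all came from the weaker deciles, 105 of 244 (43.0%; 43.3% of all). None of the 175 in the stronger deciles was missing, which allows up to 1.71% (0.512% of all).

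The WT peaks of highest fold missing from SKO were those at Olfr1375 on chromosome 11 (12.0 in WT and 11.1 in TKO), Olfr479 (9.35, in WT alone), Olfr374 on chromosome 8 (8.96 and 5.93) and Vmn2r-ps95 (8.89 and 6.13). The Olfr1375 peak, 1513 bp from the gene (chr11:51046373-51046873 over both lists), had almost the same pileup in WT and TKO, 32 and 31 fragments.

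SKO peaks with no WT peak numbered 30 of 344 (8.72%, 6.18% to 12.2%), beside 6.59% of all SKO peaks and 22.6 at the decile rates. The interval holds the share over all SKO peaks. None of the 155 in the stronger deciles was among them, which allows up to 1.94% (0.0371% of all). The highest folds lay near Olfr1244-ps1 on chromosome 2 (8.45, and 6.74 in TKO), near Olfr66, inside Vmn2r62 on chromosome 7 (7.60, and 6.39 in TKO) and near Olfr1513 on chromosome 14 (7.18, in SKO alone).

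**Figure D4:**
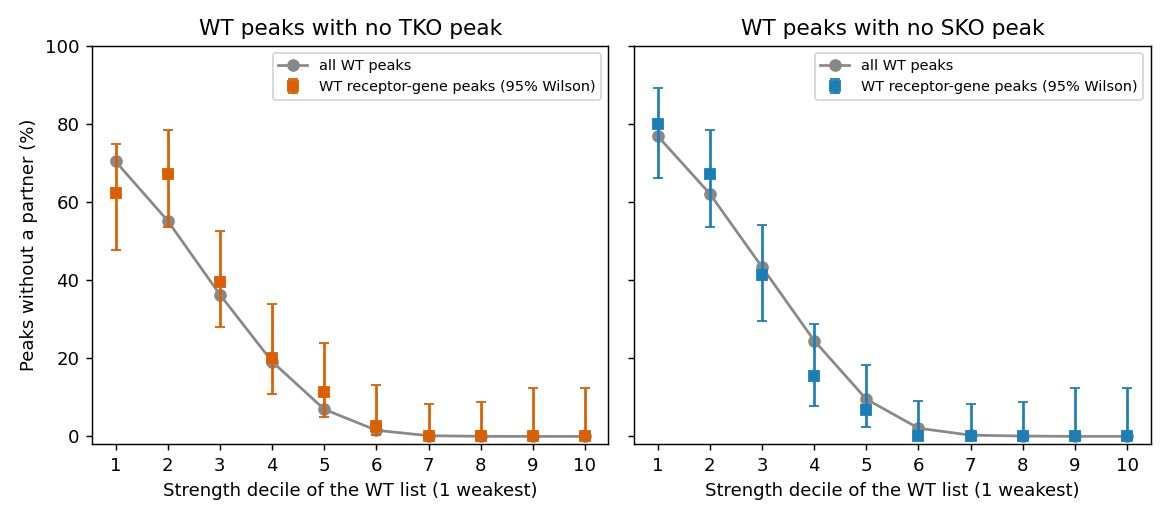
Percent of WT peaks without an overlapping peak in TKO (left) and SKO (right), by strength decile of the WT list from weakest to strongest. Grey points are all WT peaks and squares are WT peaks at receptor genes with 95% Wilson intervals; both fall from over 60% in the weakest decile to 0 or near 0 in the upper deciles.

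The third comparison set the knockouts against each other. Of TKO peaks at receptor genes 50 of 345 (14.5%, 11.2% to 18.6%) had no SKO peak, as did 14.5% of all TKO peaks. Of SKO peaks 49 of 344 (14.2%, 10.9% to 18.3%) had no TKO peak. That is above the 10.4% of all SKO peaks, and 37.1 would be missing at the decile rates. The interval covers counting error only, so the difference was not tested. In the weaker deciles of the SKO list it was 49 of 189 (25.9%, 20.2% to 32.6%; 20.7% of all). None of 155 in the stronger deciles was missing (0.0674% of all), and none of 148 in TKO (0.174% of all).

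The SKO peaks of highest fold without a TKO peak lay near Vmn2r20 on chromosome 6 (10.98), Vmn2r11 (10.6), Olfr78 on chromosome 7 (9.01), which encodes a receptor for short-chain fatty acids also found outside the nose, and Olfr1460-ps1 on chromosome 19 (8.45). WT had each of these peaks, at folds of 6.17, 12.2, 4.32 and 5.81. At Olfr78 the WT pileup was 33 fragments over a background of 6.87, and the SKO pileup 29 over 2.33. The TKO peaks of highest fold without an SKO peak were at Olfr1375 (11.1), Vmn1r-ps137 on chromosome 16 (10.3), Olfr19 on chromosome 16 (9.69) and Vmn2r-ps96 on chromosome 13 (9.40), and WT had these too.

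Merging the 3 lists gave 465 regions at receptor genes. All 3 lists had a peak in 285 of them (61.3%, 56.8% to 65.6%), against 66.3% of all merged regions. A WT peak alone was found in 71 (15.3%, 12.3% to 18.8%; 12.7% of all), WT and TKO in 33 (7.10%; 7.18% of all), WT and SKO in 30 (6.45%; 4.51%), TKO alone in 17 (3.66%; 4.30%) and SKO alone in 19 (4.09%; 3.34%). Among Vmn2r regions 8 of 121 (6.61%) had a WT peak alone, while 54 of 297 Olfr regions (18.2%) and 9 of 47 Vmn1r regions (19.1%) did.

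Both knockouts shared 10 regions without a WT peak (2.15%, 1.17% to 3.91%; 1.64% of all). Besides those at Olfr66, Olfr1244-ps1, Vmn2r62 and Vmn1r-ps5 they lay near Olfr153 and Olfr470, Olfr278-ps1, Vmn1r80, Vmn1r-ps126 and Vmn2r-ps13. Their folds ran from 4.61 at Olfr153 to 8.24 at Vmn1r-ps5 in TKO and from 4.55 at Olfr278-ps1 to 8.45 at Olfr1244-ps1 in SKO, and their pileups stayed between 11 and 28 fragments. The Vmn2r62 region lay inside the gene (chr7:42765834-42766075) with 17 fragments in each knockout.

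For regions held by both lists the enrichment itself could be set side by side. Over the 318 receptor-gene regions in WT and TKO the median log2 ratio of TKO to WT fold was −0.11 (quartiles −0.46 and 0.19), with −0.15 over all shared regions. Over the 315 in WT and SKO it was −0.08 (−0.45 and 0.23), with −0.11 over all. In TKO 16 receptor-gene regions (5.03%; 4.57% of all) had at most 0.5 times the WT fold and 6 (1.89%; 1.07% of all) at least 2 times. In SKO there were 15 (4.76%; 5.02%) and 8 (2.54%; 1.81%).

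**Figure D5:**
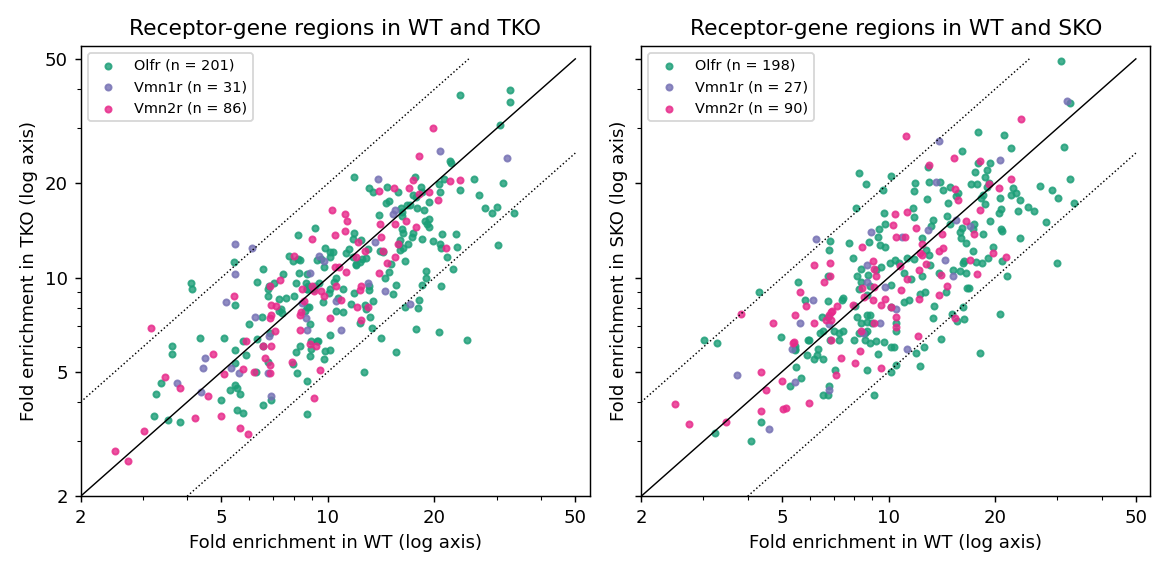
Fold enrichment in TKO (left) and SKO (right) against WT, on log axes, for the 318 and 315 receptor-gene regions with a peak in both lists, coloured by family. The solid line marks equal folds and dotted lines a 2-fold difference; 16 regions lie below the lower dotted line in TKO and 15 in SKO.

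Genes that act with the receptors were looked at by the same rule, within 10 kb. The list of olfactory signalling and receptor choice holds 25 genes, and 23 had a WT peak. Their 96 WT peaks reached 10.8 in median fold; 14 (14.6%) had no TKO peak and 13 (13.5%) no SKO peak, beside 19.0% and 21.9% of all WT peaks. All WT peaks were kept in TKO at 13 of the 23 genes and in SKO at 15. Lhx2, a factor that binds the receptor enhancers (2 peaks in each list), and Ebf1, its partner (5 in each), were among those, while Ebf2 had 3 of 7 WT peaks without a partner in either knockout. Adcy3, the adenylyl cyclase of odour transduction, had 6, 5 and 6 peaks. Cnga2, a subunit of the cyclic nucleotide-gated channel, had 2 in each list. Omp, the olfactory marker protein gene, had 3, 3 and 2. Kdm1a, a histone demethylase needed for receptor choice, had 6, 4 and 3.

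The vomeronasal list of 8 genes had 34 WT peaks, of which 6 (17.6%) had no TKO peak and 8 (23.5%) no SKO peak. Over all WT peaks the shares were 19.0% and 21.9%, which also stand beside the other shares below. Trpc2, the channel of vomeronasal transduction, had 5, 4 and 4 peaks, and Gnao1, the G protein subunit that serves type 2 receptors, had 6, 6 and 4. Gnai2, its counterpart for type 1 receptors, had 6, 5 and 5. The other chemosensory families, 85 genes in all, had 36 WT peaks, of which 8 (22.2%) were without a TKO peak and 7 (19.4%) without an SKO peak. Of the 36, 15 were at the 21 genes with a symbol starting Ms4a, 4 of them without a TKO peak and 3 without an SKO peak. All 6 WT peaks at the trace amine receptors (Taar) were kept in both knockouts. The bitter receptors (Tas2r, 40 genes) had 7 WT peaks, of which each knockout lacked 2. These counts are too small to set the 2 families apart. Among gene families that are also arrayed in clusters, zinc finger genes lacked 21.7% of 904 WT peaks in TKO and 24.7% in SKO, and clustered protocadherins 8.24% and 4.71% of 85.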

How the data were processed

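CTCF ChIP-seq of 18 samples was used through 3 peak lists, 1 per genotype, each called on pooled replicates per the labels. Per the submitters' processing notes the build was mm10 and the tools were MACS2 2.1.2 and Bowtie2 2.3.4, besides SAMtools 1.9, deepTools 3.5.0, FastQC 0.11.7 and bedtools 2.25.0. Read filters and the handling of reads with several matches are not stated there. The deposited lists give each peak a score, a fold (ratio of ChIP to local background), and −log10 p and −log10 q values, all the authors' own, which were used as deposited.

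Rows with equal coordinates were joined, keeping the strongest summit. Pileup and background were solved from fold and −log10 p. Every row gave a whole-number pileup (relative tolerance 1e-04). Deciles rank each list by −log10 q. Overlaps of at least 1 bp counted as partners; bedtools gave the same counts, and the overlap and pileup steps were tested on simulated data. From the 2073 receptor entries that RefSeq lists, 8 were left out, since they carry scaffold positions below 3000000 on chromosomes that have no sequence there. Clusters were chained over gaps of up to 500 kb. Windows were aligned with Biopython (match 1, mismatch −1, gap opening −2, extension −0.5).

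The comparisons are WT against each knockout and the knockouts against each other, as counts, with no test. Named items are the clusters of at least 20 genes, the 3 WT peaks of highest −log10 q per family, the 4 missing and 4 added peaks of highest fold per comparison, regions in both knockouts alone, the 6 peaks of highest fold inside Olfr genes and the 6 genes with most peaks; peaks inside Vmn1r and Vmn2r genes are given as counts. No receptor-gene peak lay within 10 kb of a beta-globin gene or of an antigen receptor gene with a symbol starting Tcra, Trav, Trdv or Igh. Other antigen receptor symbols were not searched for this. The members, lists and rules were chosen with earlier results of these data known. Peak overlap, window, gene type, threshold and chaining were varied.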

Additional observations from a re-analysis of the deposited data

How the results depend on the processing

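The 11 summary values were recomputed under 58 alternatives, and 49 stayed within the 95% interval of the value reported. Counting only peaks with a −log10 q of at least 5 gave 20.2% of WT peaks without a TKO peak and 20.2% without an SKO peak. It gave 5.86% of SKO peaks without a WT peak and 67.0% of merged regions in all 3 lists. This alternative removes weak peaks, and over all peaks it gave 14.6% and 17.3% of WT peaks and 3.87% of SKO peaks. The share of all merged regions was not computed at this threshold, so the 67.0% has no like value beside it. With gene bodies alone 5.13% of 78 TKO peaks had no WT peak and the median TKO fold was 8.11. The WT density over all clusters was 15.3 peaks per Mb with genes up to 1 Mb apart chained, 9.20 with genes up to 100 kb apart and 12.1 for peaks past a −log10 q of 5. The share of SKO peaks without a TKO peak ran from 11.1% at that threshold (7.04% over all SKO peaks) to 15.7% for protein-coding receptor genes alone. No paired analysis was possible because replicates were pooled before peaks were called and no column carries a replicate; for the same reason no replicate could be left out. The WT peaks at receptor genes missing from TKO had a median pileup of 16 fragments and the shared ones 45. Over all WT peaks the medians were 16 and 51, so this contrast is not particular to receptor genes. The part of depth in it was not tested.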
